A study of Homo sapiens with 6 samples.

Results

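MAPK6 encodes ERK3, an atypical mitogen-activated protein (MAP) kinase, and this account follows MAPK6 and the genes of the proteins known to act on it or with it. The genes were chosen by symbol and role: MAPK6 itself, its closest paralog MAPK4, the kinase it binds (MAPKAPK5), the kinases of its activation loop (PAK1, PAK2, PAK3), a substrate (NCOA3), a phosphatase that stabilises it (CDC14A) and a deubiquitinase (USP20). Of these 9 genes, 6 could be matched to a probe set by symbol, among 17687 genes named in all; PAK1, PAK3 and NCOA3 were not analysed here. Each of the 6 had 1 probe set. The cells were A375, an established human melanoma line grown in medium with fetal bovine serum. They were transfected with a predesigned small interfering RNA against ERK3 (siERK3, 3 arrays) or with a commercial negative control siRNA (siCon, 3 arrays), both with the same transfection reagent. Total RNA taken 3 days later was hybridised to Clariom S Pico human arrays. The study asked how gene expression in these cells responds to ERK3 knockdown. The labels do not state that replicates came from separate cultures, so each p-value reflects array-to-array spread that may be technical. Nor do they give the siRNA sequence or say whether it was a mixture.

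ERK3 differs from the classical MAP kinases in that its activation loop holds a lone serine in place of the usual threonine and tyrosine. Group I p21-activated kinases (PAK1, PAK2 and PAK3) phosphorylate that serine, and ERK3 then binds and activates MAPK-activated protein kinase 5 (MK5, the product of MAPKAPK5). The ERK3 protein is short-lived: it is removed by the ubiquitin-proteasome system, while CDC14 phosphatases and USP20 are known to slow its loss. Much of this control acts on the protein, which an array of RNA does not measure.

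All values are on the log2 scale as deposited, where a difference of 1 is a doubling of signal. The 95th percentile of the 612 negative control probe sets lay between 7.32 and 7.56 on the 6 arrays and is used below as the background level. Array medians lay between 7.06 and 7.10, and the median change over all genes was -0.0014. Of 9 measured melanocytic and melanoma markers, 5 lay above background on all 6 arrays, among them SOX10 at 11.78 ± 0.26 (SD, n = 3) in siCon, while MLANA, PMEL, TYR and TYRP1 lay below it on all 6. Of the markers of other cell types, 3 of 4 for leukocytes, PTPRC at 4.03 in siCon among them, all 3 for endothelium and all 4 for epithelium lay below background on all 6 arrays. LYZ, in the leukocyte list, lay above it on all 6 (9.40 in siCon, change -0.85, adjusted p = 0.0965 in limma). Of 5 fibroblast markers, COL1A2 (8.11 in siCon) and LUM (9.60) lay above it on all 6 arrays and LUM fell by 0.83. PDGFRB went the other way, with a change of 0.75 (adjusted p = 0.0631 in limma). It lay above background on 0 of 3 siCon arrays and on 3 of 3 siERK3 arrays. The part of these markers in the results below was not tested.

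MAPK6 was the first gene examined, since it is the target of the siRNA. It read 13.45, 13.55 and 13.62 on the siCon arrays and 10.54, 10.32 and 10.67 on the siERK3 arrays. The groups did not overlap, and siERK3 2 was the lowest of the 6 arrays. Against the siCon mean, the signal that remained was 12.4%, 10.7% and 13.7% on siERK3 1, siERK3 2 and siERK3 3. The fitted change was -3.03 (SE 0.14; 95% confidence interval -3.36 to -2.71; adjusted p = 0.000133 in limma, Benjamini-Hochberg over all genes), and 0% of the genes changed by more. RNA was pooled from whole cultures, where fewer cells with the transcript and less transcript per cell cannot be told apart. By exact two-sided permutation of the arrays p was 0.1, which is the lower limit for a design of 3 against 3.

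MAPK6 was not reduced to background. It stood 2.93 to 3.27 above the background level on the siERK3 arrays and 5.90 to 6.25 above it on the siCon arrays. With that background level subtracted on the linear scale, a step added after the data were seen, the remaining signal was 11.0% of siCon in place of 12.2%. The RefSeq table lists 6 processed copies (pseudogenes) of MAPK6, and 0 of these have a probe set named for them; how far the MAPK6 probes read those copies was not tested.

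The 3 nearest measured genes on either side of MAPK6 on chromosome 15, in RefSeq order, were looked at beside it. Of these 6, 0 passed limma's test and 2 had an unadjusted p under 0.05. The shares over all genes were 0.956% and 13.5%. TMOD3, an actin filament capping protein, read 12.38, 12.08 and 12.08 in siCon and 11.61, 11.62 and 11.65 in siERK3. Its groups did not overlap, with a change of -0.55 (SE 0.14; adjusted p = 0.121). LEO1, a subunit of the PAF1 transcription complex, had a change of -0.17 (SE 0.12; adjusted p = 0.627). GNB5, a G protein beta subunit, had one of 0.39 (SE 0.15; adjusted p = 0.297). The groups of LEO1 and GNB5 did not overlap either, and 19.8% of all genes had groups that did not. TMOD2, BCL2L10 and MYO5C lay below background on all 6 arrays, and their groups overlapped.

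**Figure D1:**
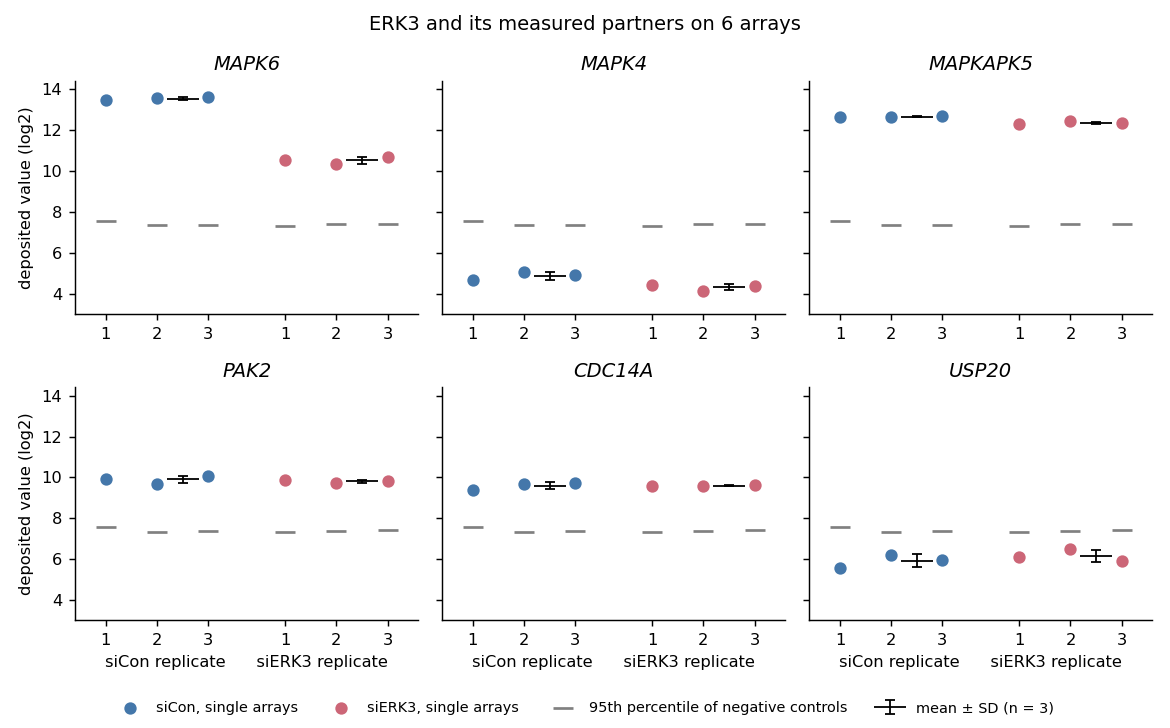
Deposited log2 values (y axis) of the 6 measured genes on each array (x axis, replicate numbers of siCon in blue and siERK3 in red), with mean ± SD (n = 3) in black and each array's background level (95th percentile of its negative controls) as a grey bar. MAPK6 drops from between 13.45 and 13.62 to between 10.32 and 10.67 and stays above the grey bars, whereas MAPK4 and USP20 lie below the bars on all 6 arrays.

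Of the 6 measured genes, only MAPK6 passed the test. Over all 17687 genes, 0.956% passed in either direction, 0.509% lower and 0.447% higher. Among the 5 others 0 passed in limma, 2 were lower at an unadjusted p under 0.05, and 0 passed under an ordinary linear model without moderation of the variance. The groups did not overlap for 3 of the 6, MAPK6 included, all lower in siERK3, against 19.8% of all genes in either direction and 9.7% lower. An unadjusted p under 0.05 was reached by 13.5% of all genes, and by 6.5% with a lower value, while 3 of the 6 members reached it, MAPK6 included. Nothing particular to the 5 others is read from these counts. The number of genes called fell whichever array was left out. Without siCon 1, siCon 2 or siCon 3 the fit called 35, 60 or 28 genes in place of 169. Without siERK3 1, siERK3 2 or siERK3 3 it called 26, 25 or 23. Fewer arrays also mean less power, and how much of the fall came from that was not tested. MAPK6 was the member called in each of these fits.

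MAPK4 encodes ERK4, the closest relative of ERK3 and, like it, a kinase known to bind MK5. It read 4.65, 5.04 and 4.90 in siCon and 4.43, 4.14 and 4.35 in siERK3. The siERK3 arrays were all lower than the siCon arrays, but every value lay below background, at -2.91 to -2.29 relative to that level in siCon and at -3.25 to -2.89 in siERK3. The difference of -0.56 (SE 0.15; 95% interval -0.91 to -0.21) had an unadjusted p of 0.00579 and an adjusted p of 0.152 in limma, and is given as a difference in signal with no fold. Of the 8838 named genes below background on all 6 arrays, 1.54% had a difference at or below that of MAPK4, as had 15.0% of the negative controls. No rise of the paralog was seen. At these levels the arrays give no measure of how much MAPK4 transcript the cells hold.

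MAPKAPK5 encodes MK5, the protein kinase that ERK3 binds and activates. It read 12.65, 12.63 and 12.67 in siCon and 12.32, 12.42 and 12.36 in siERK3, well above background throughout. Every siERK3 array lay below every siCon array, and the replicates were tight, with SDs of 0.02 and 0.05; 99.3% of genes varied more within groups. The siERK3 signal was 82.2% of siCon (95% interval 67.8% to 99.6%), a change of -0.28 (SE 0.12). It did not pass the test over all genes (unadjusted p = 0.0465, adjusted p = 0.363 in limma), and 25.3% of genes changed by more. The SE of 0.12 comes from limma's moderation, which raises the small spread of this gene toward that of other genes. With the gene's own spread the SE was 0.033 and the unadjusted p 0.00105, but the adjusted p was still 0.121. Over all the alternatives run, the change stayed between -0.31 and -0.26 and the adjusted p between 0.106 and 0.584.

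PAK2 was the activation-loop kinase that could be measured. It is the broadly expressed member of the group I PAKs, which are switched on by the GTPases RAC1 and CDC42. PAK2 read 9.94, 9.69 and 10.06 in siCon and 9.88, 9.74 and 9.81 in siERK3. The siERK3 values all fell inside the siCon range. The change was -0.09 (SE 0.14; 95% interval -0.41 to 0.24; adjusted p = 0.853 in limma), and 71.5% of genes changed by more. It was -0.0021 without siCon 3 and -0.19 without siCon 2.

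CDC14A is a dual-specificity phosphatase known to protect ERK3 from degradation. It read 9.40, 9.68 and 9.72 in siCon and 9.59, 9.57 and 9.64 in siERK3. The siERK3 arrays again lay inside the siCon range, with means of 9.60 in both groups. Its change of 0.0015 (SE 0.14; 95% interval -0.31 to 0.32; adjusted p = 0.998 in limma) has no settled sign, since leaving out 1 array moved it between -0.098 and 0.063.

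USP20 is a ubiquitin-specific protease known to deubiquitinate ERK3. It read 5.58, 6.21 and 5.98 in siCon and 6.11, 6.48 and 5.92 in siERK3. The groups overlapped and all 6 values lay below background. The difference of 0.25 (SE 0.21; 95% interval -0.22 to 0.72; adjusted p = 0.677 in limma) is given with no fold. It was 0.075 without siCon 1 and 0.39 without siCon 2. Of the genes below background on all arrays, 14.6% had a difference at or above that of USP20, as had 30.6% of the negative controls.

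These intervals state what the arrays could and could not resolve. With the spread fitted for each gene, a change had to reach 0.66 for MAPKAPK5, 0.75 for CDC14A, 0.77 for PAK2, 0.83 for MAPK4 and 1.11 for USP20 to be called among all genes. For the members above background apart from MAPK6, the 95% intervals leave room for a level as low as 67.8% of siCon for MAPKAPK5, 75.2% for PAK2 and 80.5% for CDC14A. The upper bounds were 99.6%, 118% and 125%.

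**Figure D2:**
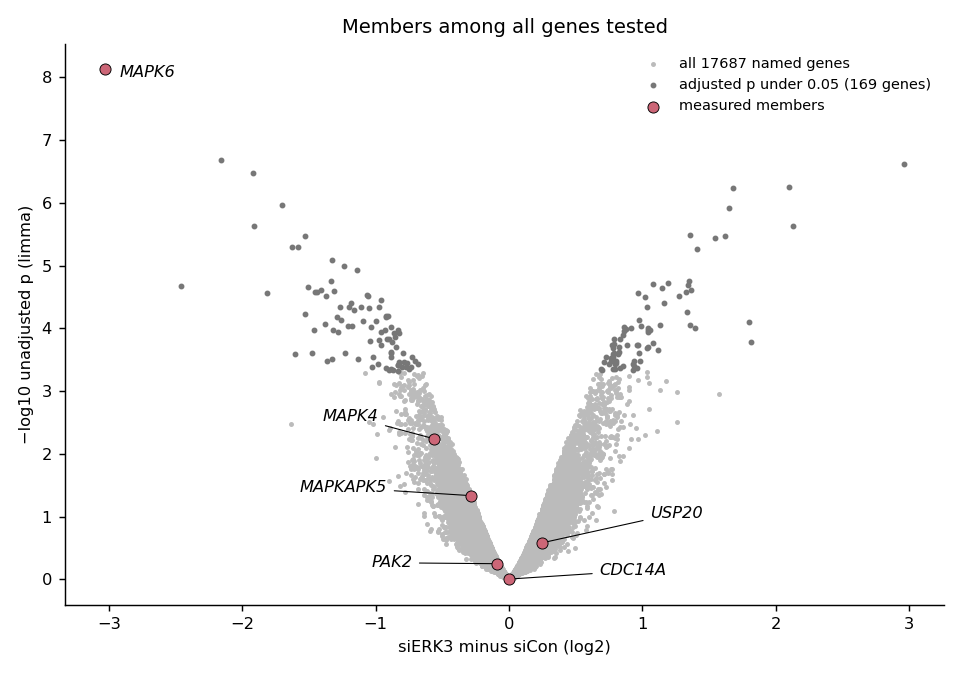
Change after ERK3 knockdown (x axis, siERK3 minus siCon, log2) against −log10 of limma's unadjusted p (y axis) for 17687 genes in light grey, the 169 called genes in dark grey and the 6 measured members in red. MAPK6 lies alone at -3.03, and the other 5 lie within the mass of genes that did not pass.

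The genes around the members were taken as 3 lists by role, 44 of whose 47 entries were measured; 1 rose, 1 fell and 42 did not pass (4 of these at an unadjusted p under 0.05). Their median change was -0.01, against -0.0014 over all genes. Over all genes, 0.956% passed. Called or not, 6 of the 44 had an unadjusted p under 0.05, against 13.5% of all genes. The groups did not overlap for 10 of the 44, against 19.8% of all genes. Nothing particular to the lists is read from these counts. Without any 1 of the 6 arrays, 1 of the 44 passed.

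The first list holds the closest relatives of the members, of which 12 of 14 were measured. In limma 0 passed, with 1 higher at an unadjusted p under 0.05, and the median change was -0.0066. MAPK3, which encodes the classical MAP kinase ERK1, had the smallest p. It read 11.67, 12.10 and 11.79 in siCon and 12.57, 12.60 and 12.62 in siERK3, with no overlap. The change was 0.75 (SE 0.15; adjusted p = 0.0644); it passed with the lowest 30 percent of genes left out (0.0332), with the lower 50 percent left out (0.0114), with array weights (0.0368), with a mean-variance trend (0.000601) and with background subtracted (0.0459). In the other 12 of 17 alternatives, among them every fit with 1 array left out, the replicate block and all 3 normalizations, it did not pass (adjusted p 0.0597 to 0.196). MAPK7, which encodes ERK5, lay below background at 6.44 and 6.73. NCOA2, a steroid receptor coactivator and a paralog of NCOA3, had a change of 0.26 (SE 0.17; adjusted p = 0.570). Paralogs of other members were named for their role, after their values were seen, and none of them passed in limma. CDC14B had a change of -0.02 (SE 0.14) and USP33 of 0.11 (SE 0.13). MAPKAPK2 and MAPKAPK3, the relatives of MAPKAPK5, had changes of -0.19 and -0.19 (SE 0.14 each). PAK4 had one of -0.14 (SE 0.18), and PAK5 lay below background.

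The second list holds 20 other partners, regulators and substrates of ERK3, MK5 and the group I PAKs, 19 of them measured. 1 fell, 0 rose and 18 did not pass, and the median change was -0.01. LIMK1, the kinase that phosphorylates cofilin and is itself a PAK substrate, was the gene of this list that fell. It read 9.72, 9.97 and 10.08 in siCon and 8.13, 8.26 and 8.28 in siERK3, a change of -1.70 (SE 0.14; adjusted p = 0.00266 in limma). LIMK1 passed without each array in turn (highest adjusted p 0.0220) but not without moderation of the variance (0.0664). Its siERK3 values lay near background, and subtracting the background level gave a change of -2.58. LIMK2, its paralog, had a change of -0.08 (SE 0.20; adjusted p = 0.906). RAC1 and CDC42, which activate the PAKs, had changes of 0.06 and 0.05 (SE 0.13 each). HUWE1, a ubiquitin ligase known to act on ERK3, had 0.13 (SE 0.16). CCND3, which encodes the cyclin D3 that binds ERK3, had -0.06 (SE 0.15), and SEPTIN7, a cytoskeletal partner of MK5, had -0.01 (SE 0.13). Apart from LIMK1, these were named for their role after their values were seen.

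The third list holds 13 transcripts that others have tied to ERK3 or to NCOA3, all measured. 1 rose, 0 fell and 12 did not pass, of which 1 was higher and 2 were lower at an unadjusted p under 0.05, with a median change of -0.0076. The riser, IL6, an inflammatory cytokine, read 4.30, 4.51 and 4.54 in siCon and 5.56, 5.24 and 5.69 in siERK3. The groups were separate, but all 6 values lay below background, so no fold is given. IL6 (adjusted p = 0.0237 in limma) did not pass without siCon 1, siCon 2, siCon 3, siERK3 1, siERK3 2 or siERK3 3, with adjusted p of 0.0933, 0.0689, 0.0880, 0.108, 0.0581 and 0.108. The higher gene that did not pass was MMP2 (change 0.39, adjusted p = 0.222 in limma). The lower ones were CXCL8 (-0.58, adjusted p = 0.115) and CXCL1 (-0.74, adjusted p = 0.0806). These lay above background on all 6 arrays and were named after their values were seen.

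**Figure D3:**
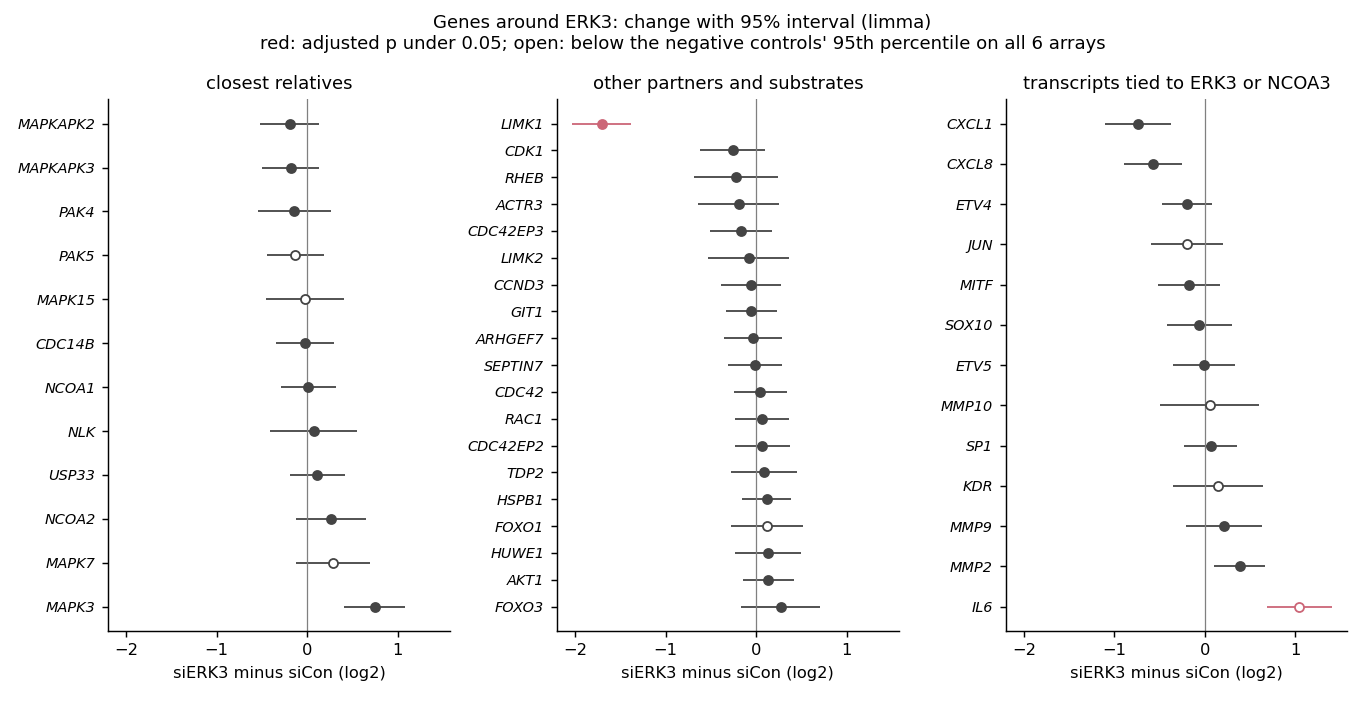
Change after ERK3 knockdown (x axis, siERK3 minus siCon, log2) with limma's 95% interval for the 44 measured genes of the 3 lists, in order of change; red marks an adjusted p under 0.05 and open circles mark genes below background on all 6 arrays. LIMK1 at -1.70 and IL6, an open circle, at 1.05 are the 2 called genes, and most intervals cross 0.

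The genes whose 6-array profile was most like that of MAPK6 were found by root mean square distance between profiles centred on their own means, among 8165 other genes above background on all arrays of at least 1 group. The median gene lay 1.53 log2 units from MAPK6. ARL14EPL was nearest at 0.47, followed by PTX3, a secreted pentraxin, at 0.48 and GEM, a small GTP-binding protein, at 0.58. Nearest to the mirror image of MAPK6 were MGP, matrix Gla protein, at 0.30, CHPF, an enzyme of chondroitin synthesis, at 0.51 and A2M, a protease inhibitor, at 0.52. ARL14EPL and GEM lay above background on 0 of 3 siERK3 arrays, A2M on 0 of 3 siCon arrays and CHPF on 2 of 3, so their distances and order rest partly on values at or below background. The 6 arrays form 2 groups, so this distance mostly ranks genes by the size and direction of the same contrast.

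**Figure D4:**
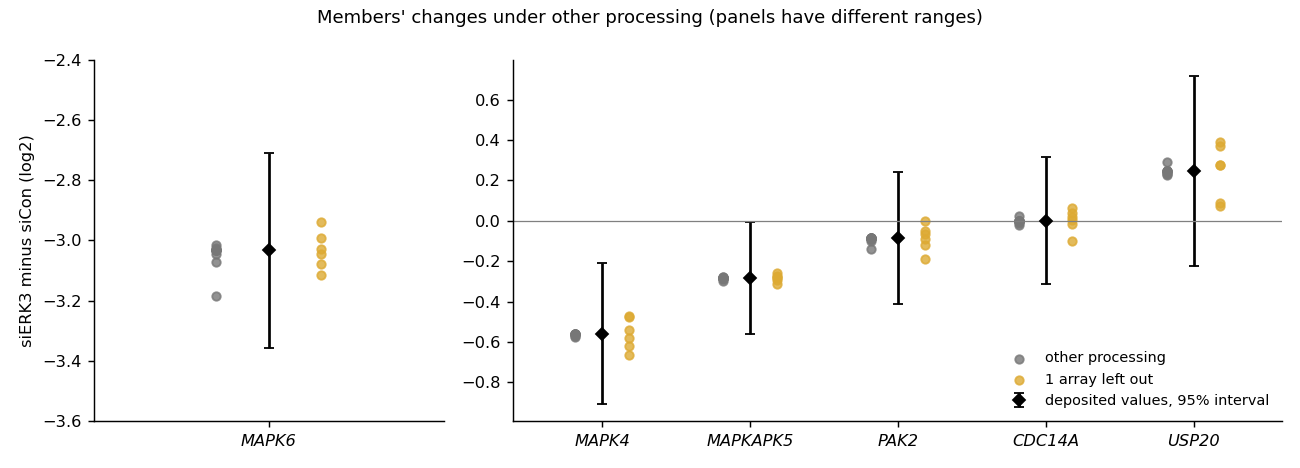
Change (y axis, siERK3 minus siCon, log2; the panels have different ranges) of each measured member as deposited (black, with 95% interval), under other processing (grey) and with 1 array left out (yellow). MAPK6 stays between -3.19 and -2.94, MAPKAPK5 between -0.31 and -0.26, and CDC14A falls on both sides of 0.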

How the data were processed

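The values are those the authors deposited, on a log2 scale read from the values, for 24351 probe sets on each of 6 arrays. How they were corrected for background and normalized, the sources used here do not give. The platform annotation named 17709 probe sets with 1 symbol; for 20 genes with several probe sets the brightest by mean over the 6 arrays was kept, leaving 17687 genes. 3739 probe sets had no name in it. The contrast siERK3 minus siCon was fitted without covariate or filter by lmFit and eBayes (limma 3.58.1, R 4.3.3). Benjamini-Hochberg adjustment covered all genes, and 0.05 was the threshold; the number of arrays limits the precision. Single values were also tested with exact permutation tests. The code was tested on simulated data. The members and lists were chosen with earlier results of these data known. Named are all measured members, list genes past the threshold or otherwise up to 3 per list with the smallest p, and the 3 nearest profiles in each direction; others are marked. Marker lists with 0 members called were the melanocytic, leukocyte, endothelial and epithelial ones (unadjusted p under 0.05: 1, 1, 0 and 1). Of 5 fibroblast markers 1 fell, and 1 that did not pass was higher at an unadjusted p under 0.05. Replicate numbers were not used to pair the arrays in the main fit, and the labels do not state whether they mark pairs.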

Additional observations from a re-analysis of the deposited data

How the results depend on the processing

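MAPK6 passed and was the only measured member called under all 17 alternatives (MAPK4 and USP20 were tested in 14 and 15 of them). Its change lay between -3.19 and -2.94. Its adjusted p ran from 3.91e-11 (limma with a mean-variance trend and robust eBayes) to 0.0350 (ordinary linear model without moderation). MAPK4, MAPKAPK5, PAK2 and USP20 kept their sign and did not pass in any alternative run, though PAK2 came as near to 0 as -0.0021. CDC14A, at 0.0015 as deposited, changed sign with quantile normalization (-0.0033), array medians subtracted (-0.012), cyclic loess (-0.0012) and array weights (-0.023), and ranged from -0.098 to 0.063 with 1 array left out; the cause was not tested. Genes called over the whole table numbered 365 and 581 among genes above the 30th percentile and the median of mean level (fewer genes tested), 722 with a mean-variance trend and robust eBayes, 8 without moderation, 278 with the negative-control level subtracted (added after the data were seen), and 23 to 60 with 1 array left out, against 169. Of the 44 list genes, 4 passed under each filter, 6 with the trend, 0 without moderation and 1 to 1 with 1 array left out, against 2; the cause was not tested. With the replicate number as a block, 33 genes and 1 list gene passed and MAPK6 kept its call (adjusted p = 0.00304). Deviations of same-numbered arrays from their group means correlated at 0.049, -0.12 and -0.039, and not every array correlated best with its own number. With 3 arrays per group these deviations are tied to one another. The correlations therefore cannot decide whether same-numbered arrays shared a culture or run, which the labels do not state. Values below the negative controls limit what can be said of MAPK4 and USP20.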
